A study of Homo sapiens with 54 samples.

Results

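Binding of Maf1 and of the progesterone receptor (PR) was compared in T47D cells, a hormone-responsive human breast cancer line that expresses PR, after 1 h with R5020. Each protein was represented by 1 deposited list of ChIP-seq regions made from 3 libraries, 6 libraries in all. The members were every listed region on chromosomes 1 to 22 and X, 22638 of 22891 listed for Maf1 and 173115 of 173579 for PR, out of 457908 regions in the 12 lists used here. They were sorted by overlap of at least 1 bp into Maf1 regions with PR (18633), Maf1 regions alone (4005), PR regions with Maf1 (17650) and PR regions alone (155465). Overlapping regions merged into 17238 places that held both proteins.

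The comparison used cells given R5020, a synthetic progestin, and took cells given the ethanol vehicle for 1 h as a reference point only. The labels name no genetic change in either group and 1 medium with serum and insulin for both, and all libraries come from 1 cell line. The series holds 54 libraries, of which 48 are ChIP libraries for 8 antibodies. Besides Maf1 and PR, the R5020 lists for 4 subunits of RNA polymerase III (POLR3A, POLR3C, POLR3G and POLR3GL), for the initiation factor Brf1 and for H3K27Ac were used. No expression data were analysed here, so the label of the cells could not be checked against marker genes.

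Maf1 is a conserved repressor of RNA polymerase III. When it is dephosphorylated, it binds the polymerase and keeps it from joining Brf1 and the other initiation factors at tRNA genes and other short untranslated RNA genes. PR is a steroid receptor that binds DNA as a dimer once it holds progestin, mostly at enhancers opened by pioneer factors in luminal breast cells. H3K27Ac is an acetyl mark on histone H3 found at active promoters and enhancers. The title of the series places PR and Maf1 together in repression of selected tRNA genes, and the question here was where the same DNA was listed for both proteins, how close their summits lay, and whether polymerase III was there too.

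The lists carried no replicate values and no read counts, so depth is unknown and no p-value is given. Shares have 95% Wilson intervals and differences of shares have 95% Newcombe intervals. These intervals cover counting error of regions only, and neighbouring regions are not independent. A fold is the authors' enrichment at the summit of a region over the peak caller's background, and a list was ranked by the authors' −log10 q. For the 2 proteins, median region width was similar, 276 bp for Maf1 and 280 bp for PR, while total length was 8.23 Mb for Maf1 and 65.0 Mb for PR.

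These 6 promoters show what the DNA of the 3 classes looked like where both the summit and the start of a protein-coding gene were in the same window. They are the strongest of each class by −log10 q among those open to printing, and each line holds the 250 bases before the start, 5′ to 3′ on the strand of the gene, from the RefSeq promoter table of GRCh38.p14. EHMT1 (chr9:137618755-137619004, plus strand), a histone H3 lysine 9 methyltransferase, and SETD1A (chr16:30957504-30957753, plus strand), a histone H3 lysine 4 methyltransferase, held the summits of both proteins. DYNLL1 (chr12:120495863-120496112, plus strand), a dynein light chain, and PRAF2 (chrX:49074003-49074252, minus strand) held a Maf1 summit and no PR region. LOC124902508 (chr10:114822949-114823198, minus strand) and RPL27A (chr11:8682542-8682791, plus strand), a protein of the large ribosomal subunit, held a PR summit and no Maf1 region. Capitals mark the motifs searched on both strands: GGGCGG (GC box), CCGGAA (ETS), CCAAT (bound by NF-Y), AGAACA (one arm of the steroid receptor element), TGTTTAC (forkhead), TGANTCA (AP-1), AGATAA (bound by GATA factors) and GGTTCGA (core of the B box of tRNA genes).

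EHMT1: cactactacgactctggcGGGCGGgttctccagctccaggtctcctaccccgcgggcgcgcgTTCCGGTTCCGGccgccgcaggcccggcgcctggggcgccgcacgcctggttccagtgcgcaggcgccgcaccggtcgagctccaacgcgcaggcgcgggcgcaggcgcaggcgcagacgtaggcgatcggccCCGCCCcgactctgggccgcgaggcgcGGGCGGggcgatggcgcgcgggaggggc
SETD1A: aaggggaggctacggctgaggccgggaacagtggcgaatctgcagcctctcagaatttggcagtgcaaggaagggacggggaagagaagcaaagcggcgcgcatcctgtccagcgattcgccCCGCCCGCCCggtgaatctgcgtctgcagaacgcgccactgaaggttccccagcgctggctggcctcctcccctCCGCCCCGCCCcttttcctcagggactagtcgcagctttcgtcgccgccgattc
DYNLL1: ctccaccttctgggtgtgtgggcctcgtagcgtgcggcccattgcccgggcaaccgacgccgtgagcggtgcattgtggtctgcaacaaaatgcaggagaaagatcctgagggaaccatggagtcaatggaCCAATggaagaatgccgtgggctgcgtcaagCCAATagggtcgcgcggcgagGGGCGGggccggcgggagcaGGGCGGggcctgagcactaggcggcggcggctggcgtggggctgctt
PRAF2: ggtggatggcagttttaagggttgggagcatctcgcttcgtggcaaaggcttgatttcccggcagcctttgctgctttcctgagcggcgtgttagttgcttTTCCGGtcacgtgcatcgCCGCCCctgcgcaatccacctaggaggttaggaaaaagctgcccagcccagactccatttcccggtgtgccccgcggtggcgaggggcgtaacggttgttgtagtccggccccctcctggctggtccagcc
LOC124902508: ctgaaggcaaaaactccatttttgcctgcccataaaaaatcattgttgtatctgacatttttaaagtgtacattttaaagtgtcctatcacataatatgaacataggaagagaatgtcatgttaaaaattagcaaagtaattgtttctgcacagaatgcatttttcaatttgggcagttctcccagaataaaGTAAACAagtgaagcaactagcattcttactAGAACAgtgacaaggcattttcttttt
RPL27A: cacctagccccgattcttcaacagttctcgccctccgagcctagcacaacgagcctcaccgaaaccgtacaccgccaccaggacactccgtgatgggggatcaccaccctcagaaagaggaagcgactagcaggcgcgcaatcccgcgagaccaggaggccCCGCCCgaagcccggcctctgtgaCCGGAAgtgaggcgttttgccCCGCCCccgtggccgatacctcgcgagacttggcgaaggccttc

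In EHMT1 the Maf1 summit lay at base 145 of the printed run and the PR summit at base 136, with a Maf1 fold of 36.4 and a PR fold of 7.32. The bases held 3 GC boxes and 2 ETS motifs and no AGAACA. In SETD1A the summits lay at bases 177 and 200, the Maf1 fold was 33.8 and the PR fold 3.08, and the window held 4 GC boxes and no AGAACA. For comparison, the medians of the whole lists were 4.31 for Maf1 and 5.90 for PR. DYNLL1, with its Maf1 summit at base 147 and a fold of 15.2, held 2 GC boxes and 2 CCAAT motifs. PRAF2 had its Maf1 summit at base 26 and a fold of 14.5, with 1 GC box and 1 ETS motif. LOC124902508 was the odd one in composition. Its bases were 32.4% G and C against 78.8% in EHMT1, and it had a PR summit at base 130 with a fold of 46.5. It held 1 AGAACA and 1 forkhead motif, both between the summit and the start of the gene, and no GC box. RPL27A had a PR summit at base 28 with a fold of 44.1, 2 GC boxes and 1 ETS motif, and no AGAACA.

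Over whole promoter windows (250 bases before to 50 after a start), AGAACA was found in 132 of 1754 windows with both summits, 7.53% (6.38 to 8.86%), and in 29 of 521 windows with a Maf1 summit and no PR region, 5.57% (3.90 to 7.88%). It was found in 319 of 1858 windows with a PR summit and no Maf1 region, 17.2% (15.5 to 19.0%). Of all 22131 windows, 11.7% held it. Thus promoters with both proteins lay below the share of all promoters for this motif, and promoters with PR alone lay above it. GC boxes were above the share of all windows in each class, and most so with Maf1. They were at 78.1% of windows with both, 77.2% with Maf1 alone and 59.3% with PR alone, against 56.3% of all windows. ETS motifs followed the GC boxes, at 36.1%, 34.5% and 26.0%, against 21.2% of all. The median G and C content was 68.3%, 68.7% and 62.3% in the same order and 62.3% over all windows, and its part in these shares was not tested.

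Other motifs were rarer or closer to the level of all promoters. CCAAT was in 27.8% of windows with both, 36.1% with Maf1 alone and 34.3% with PR alone, against 34.6% of all. GATA motifs were in 2.91%, 3.45% and 7.43%, against 7.88% of all, and AP-1 motifs in 3.93%, 1.92% and 5.54%, against 6.15%. Forkhead motifs were in 1.94%, 1.54% and 3.18%, against 2.85%. The B box core was in 20 of the 1754 windows with both, 1.14% (0.739 to 1.75%), against 0.944% of all windows. The exact string of AGAACA followed after 3 bases by its reverse complement was in 0 of the 22131 windows. So long an exact string is rare in any DNA, and inexact forms were not searched. Its absence therefore cannot tell whether these windows hold steroid receptor elements. A match is only a run of letters in these windows.

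Of the 22638 Maf1 regions, 82.3% (81.8 to 82.8%) overlapped PR, and of the 173115 PR regions, 10.2% (10.1 to 10.3%) overlapped Maf1. These shares are the classes themselves and are a description. Maf1 regions with PR had a median Maf1 fold of 4.54 (quartiles 3.70 and 6.22) and a median width of 291 bp, against 3.35 (2.93 and 3.95) and 218 bp for Maf1 regions alone. PR regions with Maf1 had a median PR fold of 26.1 (6.44 and 38.5) and a median width of 751 bp. PR regions alone had 5.61 (4.02 and 9.53) and 263 bp. By their medians, regions with both were thus wider and more enriched in either list. The share of Maf1 regions with PR was 52.2% when only the 22638 PR regions of highest −log10 q were kept, and 22.1% when 50% of each region had to be shared. The same settings gave 47.6% and 2.89% of PR regions with Maf1.

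Maf1 regions mostly sat inside PR regions. Of the 18633 with PR, 14773 (79.3%) lay wholly inside, and 18269 touched exactly 1 PR region. A single PR region held 2 or more Maf1 regions in 1277 cases, and up to 6. For Maf1 regions alone, the median gap to the nearest PR region was 3524 bp (quartiles 842 and 11335 bp), with 27.2% of them within 1 kb and 72.8% within 10 kb. The gap from other places in the genome to this long PR list was not computed, so these values cannot tell whether they lay unusually close. PR regions alone were farther from Maf1, at a median of 37282 bp. The list of PR regions was also the longer one by far, so the 2 gaps are not on an equal footing.

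Few regions depended on a handful of bases. Only 116 Maf1 regions overlapped PR by under 50 bp and 82 Maf1 regions alone had PR under 50 bp away. The smallest overlaps were 1 bp at the start of SLC25A22, a mitochondrial carrier (chr11:798193-798425, Maf1 fold 5.38), 3 bp beside TBC1D16 and 3 bp at NKX2-2. Just outside, Maf1 regions at CELF6 (chr15:72319662-72320297, fold 8.16), FBRS (fold 3.95) and DNAJB11 (fold 3.13) touched a PR region with 0 bp between them.

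The share of Maf1 regions with PR differed by chromosome, from 70.7% (65.8 to 75.2%) of 362 regions on chromosome 21 to 93.5% (89.9 to 95.9%) of 263 on chromosome 18. Some megabases held many Maf1 regions alone, though the 8 that held most had 269 of the 4005 (6.72%) between them. On chromosome 8, the megabase from 85 Mb held 52 Maf1 regions, 50 of them alone and 25 with POLR3A, at a repeated block of REXO1L pseudogenes. On chromosome 21, the megabase from 8 Mb held 53 Maf1 regions, 40 of them alone and 17 with POLR3A, at copies of the 45S ribosomal RNA gene. Reads from near-identical copies may be placed on any of them, so the number of separate sites in these blocks is uncertain.

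The fold of a PR region and the presence of Maf1 were related at the top of the PR list. With PR regions ranked by fold into 10 bands of equal size, Maf1 was present at 7.03% of the lowest band (fold 1.23 to 3.34) and at 3.90% to 4.48% of the third to the eighth band. It was at 9.13% of the ninth (13.3 to 22.2) and 56.7% (56 to 57.4%) of the highest (22.2 to 56.6). The share was thus nearly flat over most of the list and rose in the last steps. Among PR regions with H3K27Ac it was 14.6% to 22.3% in the first 9 bands and 71.1% (70.3 to 72.0%) in the highest. Without H3K27Ac it was 0.165% to 1.90% and 28.8% (27.6 to 30.0%). Median PR width also rose, from 190 bp in the lowest band to 720 bp in the highest, and its part in the overlap was not tested.

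**Figure D1:**
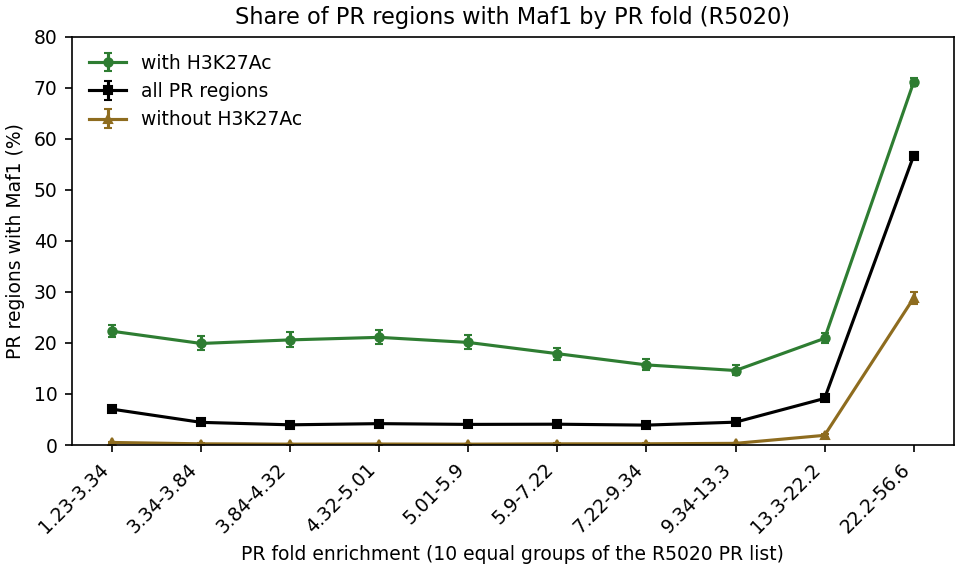
Share of R5020 PR regions that overlapped Maf1 (%, vertical) for each of the 10 bands of PR fold (horizontal), for all PR regions and for those with or without H3K27Ac; bars are 95% Wilson intervals. The share over all regions stayed under 10% up to the ninth band and was 56.7% in the highest.

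At the starts of protein-coding genes the relation to PR fold was weaker. A region was placed at a start when its summit lay within 1 kb of one. For PR regions at starts, Maf1 was present at 34.6% of the lowest fold band, 32.8% to 41.6% of the next 8 bands and 71.3% (68.9 to 73.6%) of the highest. Away from starts it was present at 2.21% of the lowest band, 0.932% to 6.70% of the next 8, and 55.4% (54.6 to 56.2%) of the highest. A weakly enriched PR region at a start was therefore listed for Maf1 far more often than an equally enriched one elsewhere. Seen from the Maf1 list, PR was present at 54.5% of the lowest band of Maf1 fold and 98.6% of the highest.

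Summits of the 2 proteins lay a median of 40.0 bp apart over the 18633 Maf1 regions with PR (quartiles 15.0 and 153 bp), and 56% were within 50 bp. The 12241 shared regions away from starts had a median of 27.0 bp (12.0 and 64.0 bp) and a median PR fold of 34.0. The 6392 at starts had a median of 118 bp (38.0 and 339 bp) and a median PR fold of 6.34. Shared regions in gene bodies of protein-coding genes, in bodies of lncRNA genes and between genes were alike, at 26.0, 28.0 and 29.0 bp. The Spearman correlation of the Maf1 and PR folds across shared regions was 0.59 away from starts (n = 12241) and 0.20 at starts (n = 6392). This is a description across regions that share the same 2 lists. When only PR regions of highest −log10 q were kept, the median over all shared regions was 26.0 bp.

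**Figure D2:**
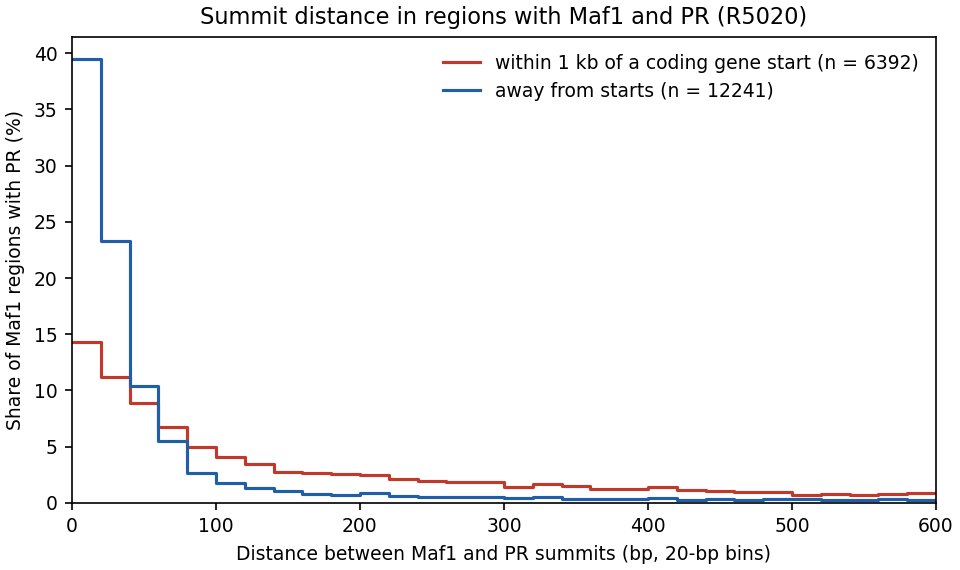
Share of Maf1 regions with PR (%, vertical) by the distance between the Maf1 summit and the nearest overlapping PR summit (bp, horizontal, bins of 20 bp up to 600 bp), at and away from starts of protein-coding genes. Away from starts the distances crowd near 0, with a median of 27.0 bp, and at starts they spread, with a median of 118 bp.

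Distance also followed the PR fold within each setting. For shared regions away from starts the median distance was 75.5 bp in the lowest band of PR fold, 98.5 bp in the third and 18.0 bp in the highest. At starts it was 95 bp in the lowest, 267 bp in the fourth (10.1 to 20.3) and 26.5 bp in the highest. The medians at starts and elsewhere were thus close together at low PR fold and at the top, and farthest apart in the middle. In the highest band the upper quartiles still differed, at 246 bp at starts and 37.0 bp elsewhere. Summits were within 50 bp in 67.1% and 82.1% of that band. In the fourth band, 16.6% of shared regions at starts and 47.8% of those elsewhere had summits within 50 bp. Where both regions were at most 400 bp wide, the medians were 64.0 bp at starts (n = 995) and 59.5 bp elsewhere (n = 626). The median Maf1 fold stayed between 3.63 and 3.95 in the lower 5 bands away from starts and between 3.93 and 4.31 at starts, and reached 8.88 and 7.78 in the highest band.

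**Figure D3:**
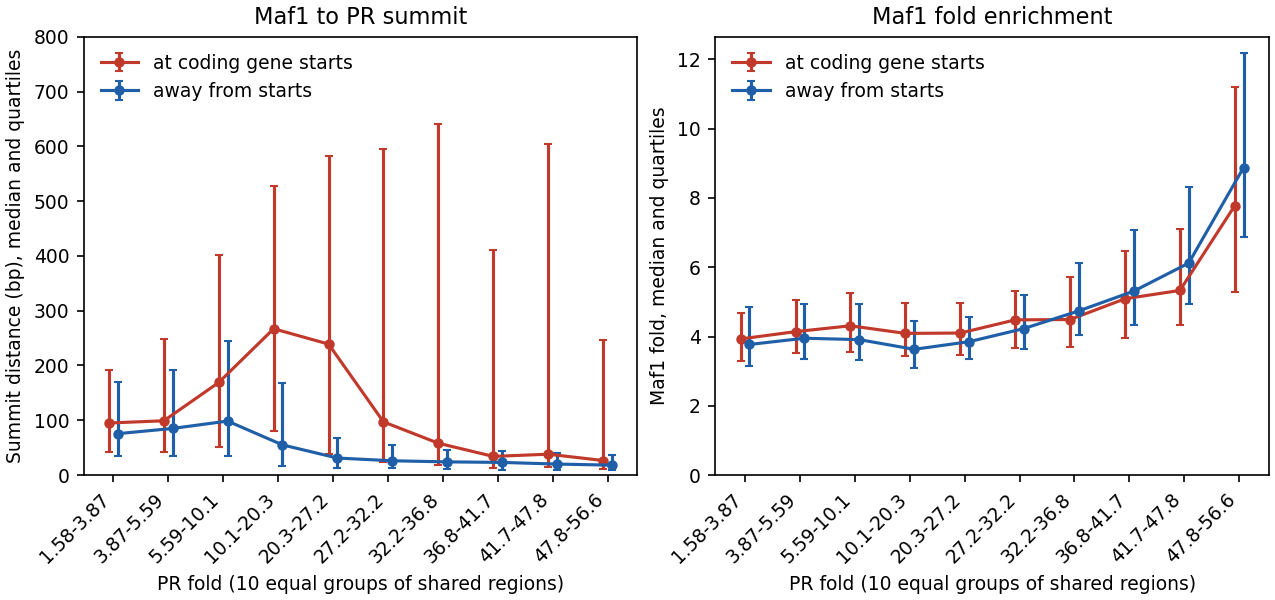
Median summit distance (left, bp) and median Maf1 fold (right), with quartiles as bars, for shared regions in each of the 10 bands of PR fold (horizontal), at starts and away from them. Median distances at starts reach 267 bp in the fourth band and 26.5 bp in the highest. Median Maf1 fold is nearly flat over the lower 5 bands and reaches 7.78 and 8.88 in the highest.

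At a start, the Maf1 summit was usually the nearer one. Strand was known for 5234 shared regions at starts, where the Maf1 summit lay a median of 100 bp from the start and the PR summit 245 bp. Maf1 was nearer in 3592 of them (68.6%) and PR in 1614. Those regions were chosen by the Maf1 summit. Over the 4885 PR regions with Maf1 chosen instead by a PR summit within 1 kb of a start, the medians were 112 bp for Maf1 and 201 bp for PR, and Maf1 was nearer in 2969 (60.8%). In this second set, among the 1680 with summits over 200 bp apart, Maf1 was nearer in 1179 (70.2%). The order was the same whichever protein chose the regions. Where only 1 protein was listed, Maf1 summits lay a median of 113 bp from the start (n = 865) and PR summits 385 bp (n = 6820).

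**Figure D4:**
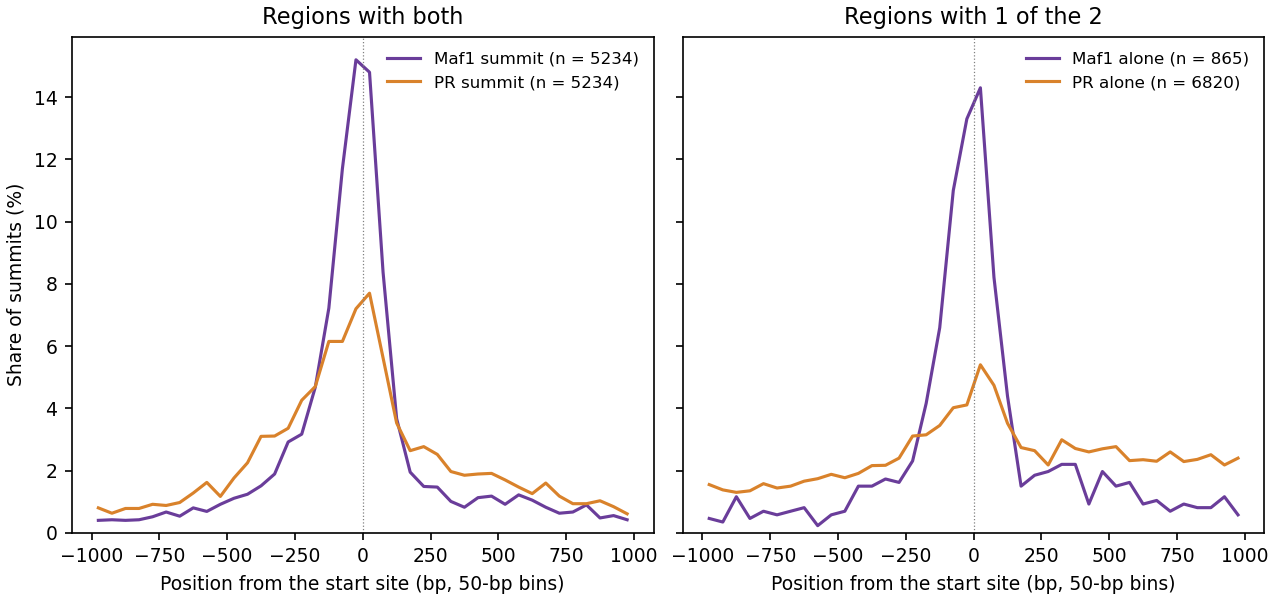
Share of summits (%, vertical) by position from the start site of the gene (bp, horizontal, bins of 50 bp, negative is upstream), for regions with both proteins, chosen by the Maf1 summit (left), and regions with 1 of the 2 (right). Maf1 summits form a narrow peak at the start, with 50.2% within 100 bp in regions with both, and PR summits a broad one, with 26.7% within 100 bp.

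Settings of the classes differed. Of Maf1 regions with PR, 34.3% were at a start, against 28.8% of Maf1 regions alone and 33.3% of all Maf1 regions, a difference of 5.49 points (3.91 to 7.03). This difference turned over with the definition of sharing. It was -18.2 points with −log10 q of at least 5, -41.6 points with equal numbers of PR regions, and -17.5 points with summits at most 200 bp apart in place of overlap. Regions between genes made up 21.2% of Maf1 regions with PR and 35.3% of Maf1 regions alone, against 23.7% of all Maf1 regions. On the PR side, 33.8% of PR regions with Maf1 were at a start, against 5.59% of PR regions alone and 8.46% of all PR regions.

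H3K27Ac set PR regions with Maf1 apart from PR regions alone. It was present at 87.7% (87.2 to 88.2%) of the first and 22.0% (21.8 to 22.2%) of the second, and 28.7% of all PR regions had it. The gap between the classes was 65.7 points (65.2 to 66.2), or 39.1 points with the PR list shortened to the length of the Maf1 list. Within the highest band of PR fold the shares were 82.7% with Maf1 and 43.9% without, and within the lowest 95% and 25.0%. The difference was thus present at either end of the PR list. With the PR summit base alone in place of the whole region it was 53.3 points. In the lowest band, 73.3% of PR regions with Maf1 and 10.5% of PR regions alone were at starts. Over all bands, PR regions at starts had the mark in 98.8% with Maf1, 76.5% alone and 85.6% of all. PR regions elsewhere had it in 82.0%, 18.7% and 23.4%. Of Maf1 regions with PR 82.3% had H3K27Ac, of Maf1 regions alone 50.3%, and of all Maf1 regions 76.6%. At starts, Maf1 regions with PR had the mark in 98.4% (98.0 to 98.7%), Maf1 regions alone in 83.4% and all Maf1 regions in 96.1%. Away from starts the values were 73.8%, 36.9% and 66.9%.

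Of the Maf1 regions with PR that had R5020 H3K27Ac, 13755 of 15326 (89.7%) also overlapped a vehicle H3K27Ac region, and of the Maf1 regions alone 1721 of 2015 (85.4%) did. Vehicle H3K27Ac regions were found at 76.2% of Maf1 regions with PR, 46.5% of Maf1 regions alone and 71.0% of all Maf1 regions. They were found at 78.8% of PR regions with Maf1, 20.0% of PR regions alone and 26.0% of all PR regions. A PR region of vehicle cells was at 23.6% of Maf1 regions with PR, 2.92% of Maf1 regions alone and 19.9% of all Maf1 regions. It was at 24.7%, 0.991% and 3.40% of PR regions with Maf1, alone and in all. A vehicle Maf1 region was at 11.7% of Maf1 regions with PR and 11.1% of those alone, a difference of 0.546 points whose interval held 0 (-0.562 to 1.59), and at 11.6% of all Maf1 regions. For PR regions with Maf1, PR regions alone and all PR regions the values were 12.7%, 0.0611% and 1.35%. The vehicle Maf1 list held 3048 regions and the vehicle PR list 6662, which limits these shares from above.

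POLR3A was rare at both kinds of Maf1 region. This protein, the largest subunit of polymerase III, was listed at 108 of 18633 Maf1 regions with PR, 0.580% (0.480 to 0.699%), and at 158 of 4005 Maf1 regions alone, 3.95% (3.38 to 4.59%), against 1.18% of all Maf1 regions. The difference was -3.37 points (-4.02 to -2.79). It was -1.91 points with equal numbers of PR regions, -1.97 points with summits at most 200 bp apart and -0.430 points when 50% of each region had to be shared. On the PR side the order was the other way: 121 of 17650 PR regions with Maf1, 0.686% (0.574 to 0.818%), and 98 of 155465 PR regions alone, 0.0630% (0.0517 to 0.0768%), against 0.127% of all PR regions. A PR region with Maf1 thus held POLR3A more often than one without, and a Maf1 region with PR held it less often than one without.

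The settings of the Maf1 regions with POLR3A are given as counts. Of the 158 Maf1 regions alone with POLR3A, 31 were at tRNA genes, 19 at ribosomal RNA genes, 17 at the DUX4 family of repeated genes, and 60 at no annotated gene. The median POLR3A fold was 59.5 at the tRNA genes and 2.12 at places without a gene. By chromosome, 26 were on chromosome 1, 25 on chromosome 8 and 18 on chromosome 10. With or without PR, the REXO1L megabase of chromosome 8 held 25 Maf1 regions with POLR3A, and the ribosomal RNA megabase of chromosome 21 held 17. The number of separate sites there is uncertain, as said above, so these counts are of listed regions. Of the 108 with PR, 57 were at tRNA genes, where the median POLR3A fold was 57.9, 11 at ribosomal RNA genes, 2 at the DUX4 family and 11 at no annotated gene. Other annotated genes took 31 of the 158 and 27 of the 108. Ribosomal RNA genes thus took like shares of the 2 groups (12.0% and 10.2%), and tRNA genes 19.6% and 52.8%. Counted over the 1019 POLR3A regions, 100 overlapped both proteins (median POLR3A fold 46.0), 150 Maf1 alone (2.95), 87 PR alone (15.1) and 682 neither (4.57). The POLR3A regions with both proteins thus had the highest median fold of the 4 groups and those with Maf1 alone the lowest.

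Brf1, which recruits the polymerase to tRNA genes, was listed less often at Maf1 regions with PR over all settings, but not at starts. It was at 2.08% of Maf1 regions with PR and 3.50% of Maf1 regions alone, against 2.33% of all Maf1 regions, and at 2.23% of PR regions with Maf1 and 0.0675% of PR regions alone, against 0.288% of all PR regions. At starts the order turned over, with 2.16% (1.83 to 2.55%) of Maf1 regions with PR and 0.953% (0.533 to 1.70%) of those alone, while POLR3A at starts was at 0.516% and 1.39%. Of the 1157 Brf1 regions, 390 (33.7%) overlapped both proteins, with a median Brf1 fold of 5.17, and 84 overlapped PR alone, with 9.06. Most of these 390 were not at tRNA genes, which accounted for 60 (15.4%), as was so for the whole list, with 251 of 1157 at tRNA genes. Of the 387 Maf1 regions with PR that held Brf1, 99 also held POLR3A, and of the 140 Maf1 regions alone that held Brf1, 108 did.

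The lists of the other subunits were of very different lengths. For these 3 antibodies, 4 libraries titled R5020 carry an ethanol treatment tag (2 of the 3 for POLR3C, 1 for POLR3G and 1 for POLR3GL), so their R5020 label is uncertain. POLR3C, with 693 regions, was at 1.37% of Maf1 regions with PR and 2.25% of those alone (1.53% of all), and at 1.42% and 0.0553% of PR regions (0.194% of all). POLR3GL, with 603 regions, was at 0.231% and 0.799% of Maf1 regions (0.331% of all) and at 0.244% and 0.0476% of PR regions (0.0676% of all). POLR3G, the paralog of POLR3GL, had 46874 regions, and was at 48% of Maf1 regions with PR and 39.0% of those alone (46.4% of all). It was at 50.8% of PR regions with Maf1 and 5.06% of PR regions alone (9.73% of all). POLR3G was therefore the one subunit listed more often at Maf1 regions with PR than at Maf1 regions alone. H3K27Ac was at 97.4% of POLR3G regions with both proteins, 81.3% of those with Maf1 alone, 84.1% of those with PR alone and 61.3% of all POLR3G regions.

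**Figure D5:**
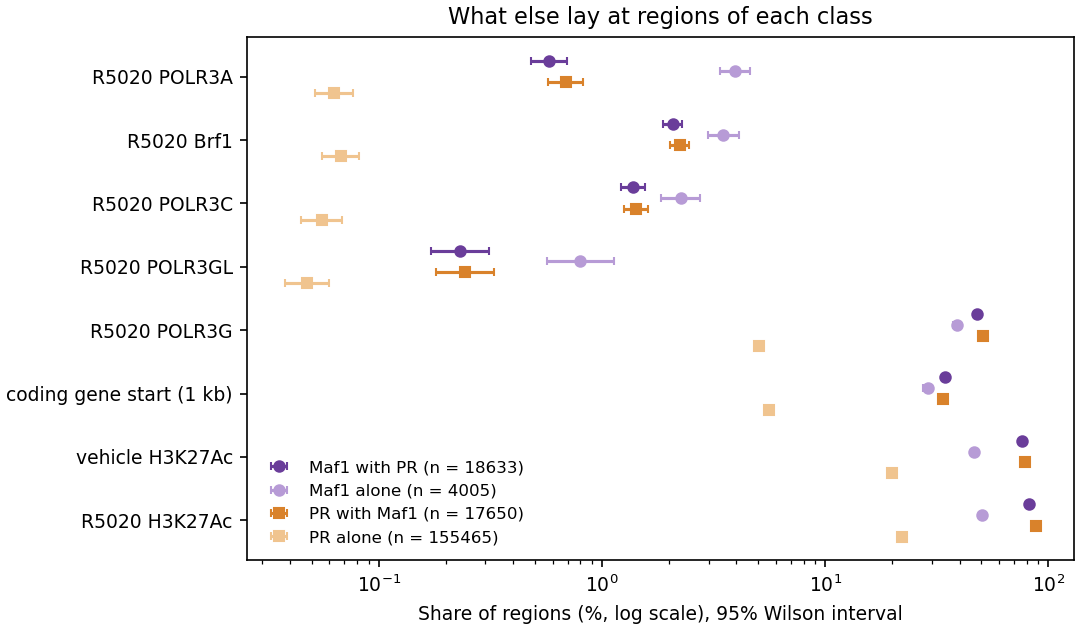
Share of regions (%, horizontal, log scale) of each class that overlapped another list or had a summit within 1 kb of a protein-coding start (rows); points are shares and bars 95% Wilson intervals. POLR3A sits at 3.95% for Maf1 alone, 0.580% for Maf1 with PR and 0.0630% for PR alone, while POLR3G and H3K27Ac are highest where Maf1 and PR are together.

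Many regions held nothing else. No other R5020 list touched 16.3% of Maf1 regions with PR and 38.3% of Maf1 regions alone, against 20.2% of all Maf1 regions. The values were 11.3% of PR regions with Maf1 and 77.1% of PR regions alone, against 70.4% of all PR regions.

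Of the 422 tRNA genes examined, 62 (14.7%, 11.6 to 18.4%) had both Maf1 and PR within 200 bp, 32 had Maf1 alone, 45 had PR alone and 283 had neither. POLR3A was listed at all 62, all 32 and all 45, and at 220 of the 283 with neither, against 359 of all 422 (85.1%). The median POLR3A fold was 55.1 with both, 58.7 with Maf1 alone, 60.1 with PR alone and 33.3 with neither (over those with POLR3A). H3K27Ac was at 61 of 62, 29 of 32, 30 of 45 and 39 of 283, against 159 of all 422 (37.7%). The count of genes with both was 39 with −log10 q of at least 5, 16 with equal numbers of PR regions, 23 when 50% of each region had to be shared and 33 with summits at most 200 bp apart. Neighbouring tRNA genes can share a region: the 62 genes were served by 58 Maf1 and 55 PR regions.

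At most tRNA genes with both, the Maf1 summit lay nearer to the gene than the PR summit. Over the 62 genes with both, the Maf1 summit lay a median of 39.2 bp from the middle of the gene and the PR summit 233 bp, Maf1 was nearer in 51, and the 2 summits were a median of 225 bp apart. The Maf1 summit was on the gene itself at 29 of the 62 and the PR summit at 2. In 11 genes the summits were within 50 bp. The median Maf1 fold was 4.31 and the median PR fold 7.73, near those of genes with Maf1 alone (4.05) and PR alone (5.97).

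The strongest genes with both show the range. TRN-GTT2-1, an asparagine tRNA gene (chr1:148529257-148529330), had a Maf1 fold of 8.05 and a PR fold of 9.48 with summits 23.0 bp apart, the Maf1 summit 21.5 bp and the PR summit 44.5 bp from the middle of the gene. TRK-TTT3-2, a lysine tRNA gene (chr1:204507030-204507102), had folds of 6.35 and 35.6 with summits 37.0 bp apart. TRD-GTC2-10 and TRA-TGC4-1, aspartate and alanine tRNA genes (chr12:124939647-124939718 and chr12:124939966-124940037), shared 1 Maf1 region of fold 7.09 and 1 PR region of fold 44.4 whose summit lay 1189 bp away. TRN-GTT2-6 (chr19:1383563-1383636) had folds of 8.25 and 4.89 with summits 49.0 bp apart. Its Maf1 region also reached TRF-GAA1-6, a phenylalanine tRNA gene with no PR region within 200 bp, which counts as Maf1 alone.

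Among genes with Maf1 alone, TRT-AGT2-1 (chr6:26532917-26532990, threonine) had a Maf1 fold of 5.53 and a POLR3A fold of 71.4. TRV-TAC1-1, TRL-CAG1-6 and TRT-CGT2-1 had Maf1 folds of 4.59, 4.12 and 5.33. Among genes with PR alone, TRI-TAT1-1, an isoleucine tRNA gene (chr19:39412168-39412260), had a PR fold of 49.3 with its summit 533 bp from the middle of the gene, and a POLR3A fold of 63.0. TRQ-CTG1-5 (chr17:8119752-8119823, glutamine) had a PR fold of 35.5 with the summit 90.5 bp away. TRC-GCA4-1, TRE-TTC1-2 and TRN-GTT24-1 had PR folds of 18.1, 17.2 and 10.4.

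Of 13 other polymerase III genes, 5 had both proteins, 4 had PR alone, 4 had neither and 0 had Maf1 alone. RN7SK, which holds the elongation factor P-TEFb inactive, had a Maf1 fold of 5.67 and a PR fold of 6.59 with summits 31 bp apart. RN7SL1, the RNA of the signal recognition particle, had folds of 6.38 and 4.97 with summits 4 bp apart, and its copy RN7SL2 had 4.44 and 33.0 with summits 230 bp apart. RPPH1, the RNA of ribonuclease P, had 4.14 and 12.1, and the vault RNA gene VTRNA1-2 had 5.36 and 38.4. PR alone was listed at RMRP, VTRNA1-3, RNY1 and RNY3, with PR folds of 6.54, 6.18, 12.1 and 16.0. Neither was listed at RNU6ATAC, VTRNA1-1, RNY4 and BCYRN1, where POLR3A folds were 45.5, 65.9, 70.1 and 23.4. A high POLR3A fold was thus found with and without Maf1.

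The strongest Maf1 regions with PR were not at POLR3A. The highest by −log10 q (chr2:24075796-24077704) overlapped SF3B6, a splicing factor subunit, FAM228B and TP53I3, with a Maf1 fold of 44.2 and a PR fold of 37.0. Its summits were 800 bp apart. The second (chr21:8988814-9013137) was 24324 bp wide, the widest of the Maf1 list, with folds of 32.1 and 30.3, and its nearest annotated gene was MIR10396A. The third, at SNORD3A, the U3 small nucleolar RNA (chr17:19187859-19188490), had folds of 34.0 and 23.5 with summits 3 bp apart. The fourth was EHMT1, printed above, and the fifth (chr17:81866537-81872451) covered ARHGDIA with folds of 35.2 and 11.6. Each of these 5 was also listed for Maf1 and PR in vehicle cells, against 11.7% and 23.6% of all Maf1 regions with PR. None of the 5 overlapped POLR3A, as for nearly all regions of the class. The SF3B6 region also overlapped Brf1, POLR3C, POLR3G and POLR3GL, the second Brf1, and SNORD3A Brf1, POLR3C and POLR3G.

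Strong Maf1 regions alone were weaker than these and lay at promoters or in lncRNA genes. DYNLL1 (chr12:120495777-120496260) had a Maf1 fold of 15.2 with PR 166 bp away. SNRNP35, a protein of the minor spliceosome (chr12:123457713-123458486), had 13.0 with PR 6027 bp away. MIR7-3HG (chr19:4769474-4769883) had 16.2, PRAF2 (chrX:49073822-49074390) had 14.5 and ZNF71-SMIM17 (chr19:56637998-56638356) had 14.5. All 5 were listed for Maf1 in vehicle cells too, against 11.1% of all Maf1 regions alone. None of the 5 overlapped POLR3A or a vehicle PR region, as for most of the class, where 3.95% and 2.92% did. These 5 and the 5 with PR thus had vehicle Maf1 counterparts.

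The strongest PR regions alone had no PR region in vehicle cells, as for nearly all of the class, where 0.991% had one. They lay in CTNNAL1 (chr9:108956130-108957632, fold 47.6), in LINC03062 (chr9:89713980-89714649, 46.9), in EPS15L1 (chr19:16447615-16448294, 49.7), beside TRI-TAT1-1 (chr19:39411200-39412040, 49.3) and 3836 bp from LOC105378612 (chr1:13665658-13666358, 49.0). The region beside TRI-TAT1-1 was the only one of the 5 with POLR3A, and Maf1 lay 1224 bp away.

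Where POLR3A was present, the strongest Maf1 region with PR was at RNVU1-7, a U1 small nuclear RNA variant (chr1:148038237-148039342), with folds of 21.7 and 15.8 and summits 38 bp apart. LMAN1L (chr15:74816874-74817827) followed with 17.2 and 56.4, summits 34 bp apart, and TRIM55 (chr8:66114543-66114833) with 12.6 and 37.4, summits 2 bp apart. The strongest Maf1 regions alone with POLR3A were much weaker. A place without an annotated gene (chr16:34085200-34085384) had a Maf1 fold of 3.77, DUX4L4 (chr4:190081055-190081248) had 4.45 and RNA45SN3, a copy of the ribosomal RNA gene (chr21:8390145-8391620), had 6.63. Among PR regions alone with POLR3A, TRI-TAT1-1 and TRQ-CTG1-5 were followed by a region in TSPAN9 (chr12:3214021-3215609) with a PR fold of 31.9.

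Protein-coding genes were sorted by what lay within 1 kb of a start. For 4159 genes, which include all of chromosome 8, either end of the gene was used as a start. A region counted for these genes may thus lie at the far end of the gene. Of 19970 genes, 31.2% (6223) had a Maf1 region with PR, 2.57% (513) had Maf1 and no PR, 26.0% (5187) had PR and no Maf1, 365 had Maf1 and PR regions that did not overlap each other, and 7682 had neither. Another 5 lists of genes were read against these shares, each chosen with earlier results of these data known. Either end was used for 5 of 25 progestin-responsive genes, 7 of 20 luminal genes and 7 of 31 polymerase III machinery genes. It was also used for 4 of 23 aminoacyl-tRNA synthetase genes and 18 of 84 ribosomal protein genes. Over all genes with a Maf1 region with PR, the median PR fold was 6.08 and the median summit distance 108 bp.

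Progestin-responsive genes had the closest and strongest pairs. Of 25, 14 (56%) had a Maf1 region with PR, 6 had PR alone and 0 had Maf1 alone, and over the 14 the median PR fold was 29.2 and the median summit distance 36.0 bp. FKBP5, a chaperone of steroid receptors, had a Maf1 fold of 27.4 and a PR fold of 34.5 with summits 27.0 bp apart (Maf1 region chr6:35726499-35728618). NFKBIA, the inhibitor of NF-kappa-B, had 23.5 and 46.0 with summits 54 bp apart. TIPARP had 12.0 and 34.3, and HES1, a Notch target, had 7.23 and 10.3. EGFR, KLF9, TNFSF11 and DUSP1 had PR alone, with the strongest PR folds near their starts 28.8, 16.3, 14.4 and 6.67. ELF5, F3, KLF15, STAT5A and ZBTB16 had neither within 1 kb.

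Luminal transcription factors and receptors showed the highest share of pairs among the 5 lists. All 5 lay above the 31.2% of all protein-coding genes, the lowest being 51.2%. The lead rests on few genes, since the synthetase list had pairs at 15 of 23. Of 20, 15 (75%) had a Maf1 region with PR, 4 had PR alone and TFAP2B had neither. At PGR, the gene of PR itself, the Maf1 fold was 9.25 and the PR fold 42.9 with summits 1.00 bp apart, and at PRLR, the prolactin receptor, they were 7.70 and 37.7, also 1.00 bp apart. TRPS1, a GATA-type repressor, had 7.38 and 35.4, and as a gene of chromosome 8 it was counted by either end. ERBB3 had 8.55 and 5.13 with summits 103 bp apart, in a Maf1 region at chr12:56103911-56104670. The strongest PR region counted for ERBB3 (fold 11.6) was elsewhere, at chr12:56080704-56081146. The pair may therefore lie at the far end of the gene and not at its promoter. ESR1, the estrogen receptor gene, had a PR fold of up to 41.9 and no Maf1 region within 1 kb of its starts, and KRT8 and NR3C1 had PR alone as well, at 16.1 and 3.74.

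Genes of the polymerase III machinery had pairs close to those of all genes in PR fold and distance. Of 31, 17 (54.8%) had a Maf1 region with PR, 2 had Maf1 alone, 8 had PR alone, 1 had both apart and 3 had neither. The median PR fold of the 17 was 6.06 and their median summit distance 109 bp. SNAPC5, a subunit of the complex that activates small nuclear RNA genes, had a Maf1 fold of 14.0 and a PR fold of 2.05. BRF1 had 11.6 and 26.3 with summits 247 bp apart, BRF2 5.74 and 7.74, and MAF1 itself 7.86 and 6.06 with summits 8.00 bp apart. BRF2 and MAF1 are on chromosome 8, where either end of a gene was used, so their pairs need not lie at the promoter. SNAPC4 and SNAPC2 had Maf1 alone, at 6.08 and 4.78. GTF3C3, SNAPC1, GTF3C6 and POLR3K had PR alone, at 13.1, 8.27, 8.60 and 7.85. BDP1, GTF3C1 and POLR3A had neither.

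Genes that charge tRNAs or build ribosomes also often had Maf1 regions, with PR folds near the median of all genes. Of 23 cytosolic aminoacyl-tRNA synthetase genes, 15 (65.2%) had a Maf1 region with PR, MARS1 had Maf1 alone (fold 3.85), 5 had PR alone and 2 had neither. GARS1 stood out with a Maf1 fold of 27.5 and a PR fold of 9.34, with summits 284 bp apart. AIMP2, AARS1 and YARS1 had Maf1 folds of 5.49, 5.53 and 5.33 and PR folds of 5.24, 7.61 and 12.4. The median PR fold over the 15 was 6.54 and the median summit distance 159 bp.

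Of 84 cytosolic ribosomal protein genes, 43 (51.2%) had a Maf1 region with PR, 7 (8.33%) had Maf1 alone, 10 (11.9%) had both apart, 18 had PR alone and 6 had neither. Maf1 without an overlapping PR region was thus found at 17 of the 84. RPS26 had a Maf1 fold of 8.01 and a PR fold of 5.61, RPL23A had 8.61 and 8.34, and RPL36 had 11.8 and 12.5. The PR region that overlapped Maf1 at RPL36 was not itself counted within 1 kb of the start. RPLP1, RPS23, RPS21 and RPS15 had Maf1 alone, with folds of 4.59, 4.59, 3.74 and 4.34. RPL12 and RPS18 had Maf1 (3.55 and 5.12) and weak PR regions (2.25 and 3.24) that did not overlap. RPL27A, RPL9, RPL13A and RPS4X had PR alone, at 44.1, 26.3, 17.9 and 13.3.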

How the data were processed

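ChIP-seq regions of T47D cells were taken from 12 of 16 deposited lists, 1 list for each antibody and treatment, each standing for 3 libraries. Per the submitters' processing notes, cutadapt, Bowtie2 and MACS2 were used with the build hg38; versions, settings, controls and how the 3 libraries were combined are not given in the sources used here. For each region the authors deposited a fold enrichment at the summit (a ratio) and the −log10 of its q-value, with none above q = 0.05. Depth is unknown, so a longer list cannot be told apart from a deeper one.

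Regions on chromosomes 1 to 22 and X were compared with Python 3.11.15, numpy 2.4.6 and pandas 2.3.3. The overlap computation was tested on simulated data with 1000 regions, where 700 of 700 planted overlaps were recovered. A summit distance is that of a Maf1 summit to the nearest summit among the PR regions it overlaps. Gene positions came from RefSeq tables of GRCh38.p14, which has the same chromosome coordinates as hg38. Starts with strand were known for 15811 of 19970 protein-coding genes (22131 promoter windows), and for the other 4159, which include all of chromosome 8, either end of the gene was used. Exons and introns were not analysed here. Of 443 tRNA genes, 422 with a numbered symbol beyond the first 100 kb of a chromosome were used.

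Named loci are the 5 regions of highest −log10 q of each class, the 3 highest of each class with POLR3A, the 3 smallest overlaps and gaps, the 5 highest tRNA genes per class, the 2 highest promoters per class outside chromosome 8, and up to 4 genes of each list and class. Some genes that this rule names are not reported here. The classes, lists and named loci were chosen with earlier results of these data known. Alternatives were −log10 q of at least 5, equal numbers of regions, 50% of both regions shared, summits at most 200 bp apart, and 5 kb in place of 1 kb for starts. The use of the summit base in place of the region was chosen after seeing the data.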

Additional observations from a re-analysis of the deposited data

How the results depend on the processing

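No paired analysis was possible because each antibody and treatment has 1 list and no replicate values, and for the same reason no replicate could be left out. Of 36 alternative values, 3 changed sign, and all 3 were the difference in start-site share between Maf1 regions with PR and alone: 5.49 points became -18.2 with −log10 q of at least 5, -41.6 with equal numbers of regions and -17.5 with summits at most 200 bp apart; it was 19.8 with 50% of both regions shared and 1.05 at 5 kb. The cause was not tested.

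In the order −log10 q of at least 5, equal numbers, 50% shared and summits at most 200 bp apart, the other values were as follows. The share of Maf1 regions with PR (82.3%) was 87.3, 52.2, 22.1 and 64.6%. The share of PR regions with Maf1 (10.2%) was 8.42, 47.6, 2.89 and 8.45%. The median summit distance (40.0 bp) was 31.0, 26.0, 47 and 27.0 bp, the last being limited by its own rule. The POLR3A difference on the Maf1 side (-3.37 points) was -4.03, -1.91, -0.430 and -1.97, and on the PR side (0.623 points) 0.507, 0.284, 0.879 and 0.482. The H3K27Ac difference on the PR side (65.7 points) was 64.5, 39.1, 66.7 and 62.5. The count of tRNA genes with both (62) was 39, 16, 23 and 33. With the summit base in place of the region, chosen after seeing the data, the 3 differences were -3.15, 0.422 and 53.3 points. Depth and the spread between replicates could not be assessed from the lists.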
